A study of Mus musculus with 41 samples.

Results

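A group of 8 mouse genes of de novo fatty acid synthesis and desaturation was listed for description in epidermal stem cells: Acly, Acaca, Acacb, Fasn, Scd1, Scd2, Elovl6 and Srebf1. They were chosen by gene symbol, and the brightest probe set by its mean across arrays stood for a gene. The platform annotation used here assigned 12 probe sets to 6 of the 8 genes, and Scd2 and Srebf1 were not analysed here. The 6 measured genes stand among 17097 genes tested. All arrays came from epidermal stem cells of wild type C57B6/J females that were 15 weeks old. The mice ate a control or a high fat diet freely for 7 weeks from the age of 8 weeks, and were sampled at 6 zeitgeber times (ZT, hours after lights on) that lie 4 h apart. In order from ZT0 to ZT20 there were 4, 3, 2, 3, 4 and 4 arrays of control mice and 3, 4, 2, 4, 4 and 4 of high fat mice, or 20 and 21 in all. No transgene or other allele is named for any group.

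Cells make fatty acids from surplus carbon in a short chain of reactions. ATP citrate lyase (Acly) splits citrate into acetyl-CoA, the acetyl-CoA carboxylases (Acaca in the cytosol, Acacb at the mitochondrial surface) turn acetyl-CoA into malonyl-CoA, and fatty acid synthase (Fasn) builds palmitate from it. Elovl6 lengthens palmitate to stearate, and stearoyl-CoA desaturases (Scd1 and its relatives) introduce a double bond. The malonyl-CoA made by Acacb also restrains the entry of fatty acids into mitochondria. The transcription factor SREBP-1, encoded by Srebf1, activates many of these genes. In skin, fatty acids and their elongated forms supply membranes, the lipids of the permeability barrier and sebum, and mice that lack Scd1 have defective sebaceous glands.

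Fasn and Acacb both differed between time points of the high fat diet, Fasn also did so under control feeding, and both have a promoter entry in RefSeq's mouse table (GRCm38.p6), so the 250 bases before their start sites are shown. Each window reads 5′ to 3′ on the gene's strand, and capitals mark the CCAAT box, searched as CCAAT on both strands (ATTGG on the strand shown).
Fasn, chr11:120824548-120824797, minus strand: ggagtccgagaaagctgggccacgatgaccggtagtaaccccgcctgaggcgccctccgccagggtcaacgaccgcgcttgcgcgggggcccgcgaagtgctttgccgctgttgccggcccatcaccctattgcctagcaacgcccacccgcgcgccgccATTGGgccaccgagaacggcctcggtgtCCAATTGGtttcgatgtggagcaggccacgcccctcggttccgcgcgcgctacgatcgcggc
Acacb, chr5:114165268-114165517, plus strand: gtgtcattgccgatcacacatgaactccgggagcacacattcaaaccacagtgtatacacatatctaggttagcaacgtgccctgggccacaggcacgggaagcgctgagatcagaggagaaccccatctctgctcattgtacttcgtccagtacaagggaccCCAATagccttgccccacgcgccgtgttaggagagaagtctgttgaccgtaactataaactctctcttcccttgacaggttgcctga
The Fasn window held 3 matches, which began 90, 62 and 59 bases before the start site. The last pair overlaps as one palindromic run. In the Acacb window 1 match began 87 bases before the start. Of the 8 listed genes, 6 had an entry, with 8 windows in all, and CCAAT occurred in 4 of the 8 windows and in 33.8% of all 32851 windows of that length. The GC box GGGCGG occurred in 3 of the 8 windows (the single Acly window and 2 of 3 Srebf1 windows) and in 32.7% of all windows. The E-box CACGTG (6.02% of all windows), the sterol regulatory element TCACNCCAC (1.05%) and the D-box TTATGNAA (3.07%), each searched on both strands, had no match in the 8 windows. These matches are letters in a window and not measured sites.

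Values are log2 RMA intensities, and a difference of 1 on this scale is a factor of 2. All arrays correlated with each other between 0.938 and 0.995. Basal keratinocyte markers were bright (Krt5 at 12.7 and Krt14 at 12.6 on average). The 7 bulge stem cell genes ranged widely, from Cd34 at the 16.9th and Lgr5 at the 25.9th percentile of all genes' means to Nfatc1 at the 90.4th and Krt15 at the 99.4th. The adipocyte list (6 of 9 genes measured) had array means between 5.62 and 5.75, and the sebocyte list (7 of 10 measured) between 6.06 and 6.65. The ZT8 arrays stood apart in keratinocyte markers. The mean of 7 basal keratinocyte genes was 11.12 and 11.29 on the control ZT8 arrays and 11.74 and 11.13 on high fat ZT8 replicates 1 and 2, while the means of the other 10 groups ran from 11.75 to 11.90. The mean of 9 suprabasal keratinocyte genes was 10.15 and 9.95 on the control ZT8 arrays and 9.44 and 10.22 on high fat ZT8 replicates 1 and 2, against group means of 9.29 to 9.59 elsewhere. High fat ZT8 replicate 2 thus resembled the control ZT8 arrays in these lists, and replicate 1 resembled the other groups. In bulk RNA, a change in the share of a cell type and a change of RNA per cell cannot be told apart.

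The first question was whether the genes changed over the day. Scd1, which makes oleate from stearate, and Fasn differed between time points in both diets, and Acacb did so under high fat feeding. Acly, Acaca and Elovl6 did not pass in either diet by the probe sets used. The test was limma's F test of 5 coefficients within a diet, adjusted over all genes by the Benjamini-Hochberg method with a threshold of 0.05. It called 2 of the 6 genes under control feeding, where 43.9% of all genes were called, and 3 of 6 under high fat feeding, where 41.5% were called, so the shares are near those of all genes. Each time point was collected on days of its own, so time of day and collection day cannot be told apart. The highest minus the lowest group mean had a median of 0.42 over the 6 genes under control feeding and 0.38 under high fat feeding, beside 0.31 and 0.29 over all genes.

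**Figure D1:**
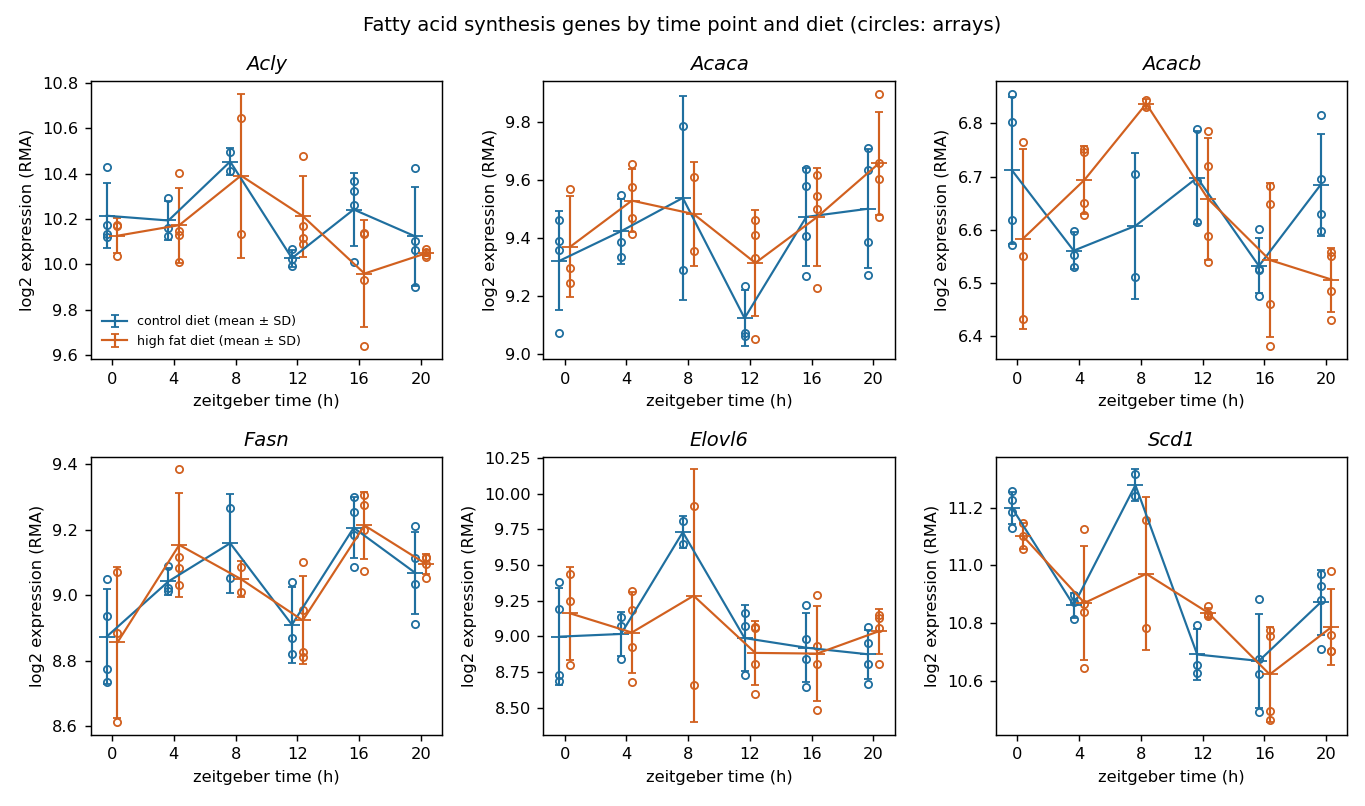
Log2 expression (vertical axes, RMA) of the 6 measured genes against zeitgeber time in hours (horizontal axes), with 1 circle for each array, bars for the mean ± SD of each group, the control diet in blue and the high fat diet in orange. Scd1 had its highest mean at ZT8 (control) or ZT0 (high fat) and its lowest at ZT16, Fasn had its highest mean at ZT16 and its lowest at ZT0 in both diets, and Elovl6 had widely separated high fat arrays at ZT8.

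Scd1 read 11.18, 11.13, 11.26 and 11.23 on the control ZT0 arrays and 10.68, 10.88, 10.63 and 10.49 on the control ZT16 arrays. The control ZT8 arrays read 11.24 and 11.32, the highest group mean of the gene. All control arrays of ZT0 and ZT8 lay above all control arrays of the other 4 time points, which held 10.87, 10.81 and 10.90 at ZT4, 10.63, 10.79 and 10.65 at ZT12, and 10.71, 10.88, 10.93 and 10.97 at ZT20. From ZT8 (11.28 ± 0.05, SD, n = 2) to ZT16 (10.67 ± 0.16, n = 4) the control level differed by 1.53-fold, without overlap of the arrays (limma F test over time, adjusted p = 2.03e-05).

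In the high fat diet Scd1 read 11.15, 11.06 and 11.10 at ZT0 and 10.77, 10.49, 10.76 and 10.46 at ZT16, a 1.39-fold difference between means with no overlap. The arrays between these times read 10.65, 10.84, 11.13 and 10.87 at ZT4, 10.83, 10.82, 10.86 and 10.83 at ZT12, and 10.98, 10.76, 10.70 and 10.70 at ZT20. At ZT8 the high fat arrays read 10.78 and 11.16, and the second of these was the highest high fat array of the gene. The time test passed here too (limma, adjusted p = 0.00437), and both calls held whichever array was left out. Without ZT8 both diets still passed, by the same test. Among the 12 group means, neighbours in order differed by more than the larger of their SDs in 2 of 11 pairs: control ZT8 lay above control ZT0, and control ZT0 above high fat ZT0.

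A 24 h cosine described Scd1 under control feeding with an amplitude (mean to peak) of 0.22 ± 0.06 (SE) and a peak at ZT2.7 ± 1.0 (SE; limma, adjusted p = 0.0289). It was the only one of the 6 genes called there, beside 6.66% of all genes. In the high fat diet the Scd1 amplitude was 0.15 ± 0.05 with a peak at ZT3.4, which did not pass (adjusted p = 0.139), and the cosines did not differ between the diets by their own test (limma, adjusted p = 0.809). The control call was lost without ZT12 (adjusted p = 0.0829), without control ZT0 replicate 3, ZT16 replicate 3 or ZT16 replicate 4 (adjusted p up to 0.0736), and with time point as a random block (0.455). The gene's other probe set gave an amplitude call under control feeding as well (adjusted p = 0.0287, fit over all 28898 probe sets, of which 6.00% were called), lost without any of 5 single arrays.

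Fasn, the enzyme that assembles palmitate, had another daily course. The control arrays read 9.05, 8.78, 8.73 and 8.94 at ZT0 and 9.30, 9.09, 9.18 and 9.25 at ZT16. High fat arrays read 9.07, 8.61 and 8.88 at ZT0 and 9.07, 9.27, 9.20 and 9.30 at ZT16. In both diets ZT16 had the highest mean and ZT0 the lowest, 1.26-fold apart under control feeding and 1.28-fold apart under high fat feeding, and the arrays did not overlap, although the lowest ZT16 array and the highest ZT0 array lay closer together than the SDs.

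A second low point of Fasn lay at ZT12, with 9.04, 8.82 and 8.87 under control feeding and 8.83, 8.81, 9.10 and 8.95 under high fat feeding. The remaining means were 9.04 ± 0.04 (SD, n = 3) at ZT4, 9.16 ± 0.15 (n = 2) at ZT8 and 9.07 ± 0.13 (n = 4) at ZT20 under control feeding. In the high fat diet they were 9.15 ± 0.16 (n = 4), 9.05 ± 0.05 (n = 2) and 9.09 ± 0.03 (n = 4). The course thus had a low at ZT0 and another at ZT12, and the cosine test did not pass (adjusted p = 0.621 under control feeding and 0.881 under high fat feeding). The time test passed under control feeding (limma, adjusted p = 0.0210) and the high fat diet (0.0146). Leaving out control ZT0 replicate 2, ZT0 replicate 3 or ZT16 replicate 1 took the control call past the threshold (adjusted p up to 0.0553), and no single array did so under high fat feeding. No neighbouring pair of the 12 Fasn means differed by more than the larger SD.

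Acacb, the carboxylase of the mitochondrial surface, had a narrow range of 6.38 to 6.86 over all arrays. In the high fat diet its arrays read 6.83 and 6.84 at ZT8 and 6.43, 6.49, 6.55 and 6.56 at ZT20, 1.26-fold apart without overlap. Its other high fat arrays read 6.77, 6.55 and 6.43 at ZT0, 6.75, 6.65, 6.75 and 6.63 at ZT4, 6.79, 6.54, 6.72 and 6.59 at ZT12, and 6.46, 6.38, 6.68 and 6.65 at ZT16. The highest means were thus at ZT8 and ZT4 and the lowest at ZT20 and ZT16, and the time test passed (limma, adjusted p = 0.0261).

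The high fat cosine of Acacb had an amplitude of 0.14 ± 0.04 (SE) with a peak at ZT7.4 ± 0.9 (SE; adjusted p = 0.0232), the only one of the 6 genes called beside 11.2% of all genes. In the control diet its amplitude was 0.04 ± 0.04 (adjusted p = 0.811), and neither the difference of cosines (adjusted p = 0.141; 3.58% of genes were called, and none of the 6) nor the diet by time test (0.0721) passed. Both high fat calls rested on the ZT8 arrays: without ZT8 the adjusted p was 0.152 for time and 0.131 for the cosine. Leaving out either single high fat ZT8 array, or ZT20 replicate 1 in the time test, also ended them. The other Acacb probe set did not follow the first (r = 0.109 over the 12 group means), and its high fat cosine had an adjusted p of 0.985.

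Acly, Acaca and Elovl6, which supply, activate and lengthen the chain's substrates, did not pass the time test by the probe sets used. Acly ranged from 9.64 to 10.65 over the arrays, with its highest group means at ZT8 in both diets (10.45 ± 0.06, n = 2, control; 10.39 ± 0.36, n = 2, high fat) and adjusted p of 0.183 and 0.107 in the control and high fat time tests. Acaca ranged from 9.05 to 9.90, and its lowest mean was at ZT12 in both diets, 9.12 ± 0.10 (n = 3) under control feeding and 9.31 ± 0.18 (n = 4) under high fat feeding (adjusted p = 0.0984 and 0.179). Without control ZT8 replicate 2 Acaca passed under control feeding (0.0338), and without high fat ZT8 replicate 1 Acly passed under high fat feeding (0.0208). Elovl6 stood out at ZT8 alone. Its control ZT8 arrays read 9.65 and 9.81, above all other control arrays, which lay between 8.65 and 9.38. High fat ZT8 replicates 1 and 2 read 8.66 and 9.91, below all control ZT8 arrays and above them. The time tests of Elovl6 gave adjusted p of 0.0726 under control feeding and 0.585 under high fat feeding, and without high fat ZT8 replicate 1 the high fat value was 0.0389. The array split of Elovl6 at ZT8 ran with the suprabasal list (9.44 on replicate 1 and 10.22 on replicate 2), whose part in it was not tested.

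The second question was whether diet changed the level. None of the 6 genes passed in the diet average, the equally weighted mean of the 6 time point differences, where 7.59% of all genes were called. High fat minus control was 0.07 ± 0.05 (SE) for Acaca, 0.01 ± 0.04 for Fasn, 0.00 ± 0.03 for Acacb, -0.04 ± 0.09 for Elovl6, -0.06 ± 0.05 for Acly and -0.06 ± 0.04 for Scd1. Adjusted p lay between 0.343 and 0.955 (limma), and none had an unadjusted p under 0.05. Of the 95% confidence intervals, the bound farthest from 0 lay 0.23 away for Elovl6, a factor of 1.17. Larger average differences thus lie outside the intervals of all 6 genes by the probe sets used, but not by every probe set. The interval ran from -0.37 to -0.07 for the second Elovl6 probe set and from -0.33 to -0.02 for the second Acaca probe set (limma, adjusted p = 0.0575 and 0.151). The median difference was -0.02 over the 6 genes and 0.02 over all genes.

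**Figure D2:**
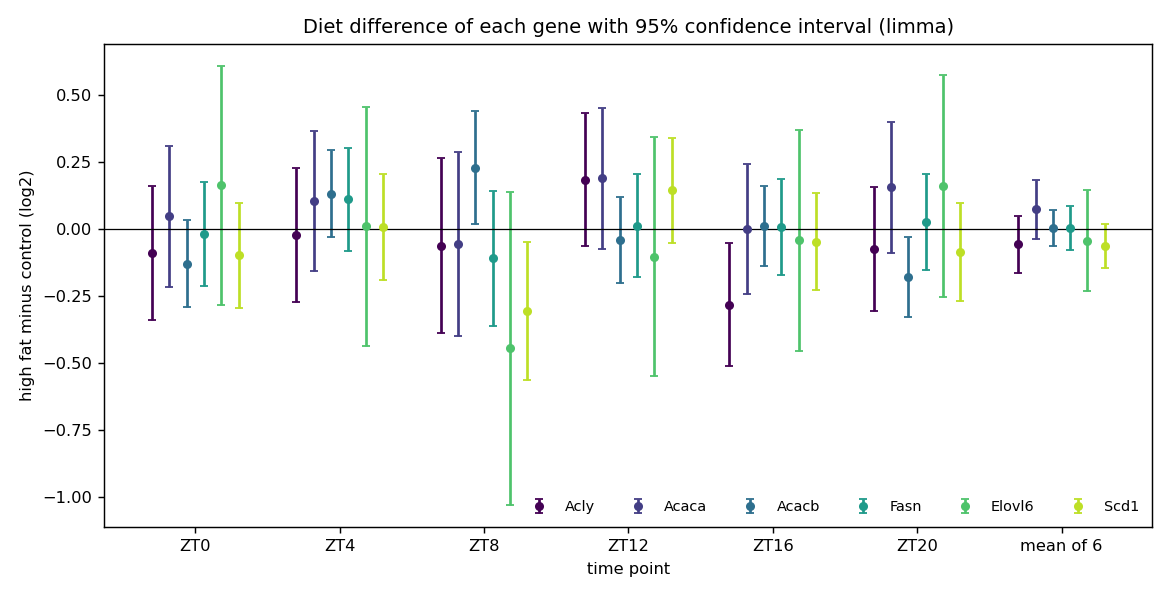
High fat minus control on the log2 scale (vertical axis) for the 6 measured genes at each time point and for the mean of the 6 time points (horizontal axis), with points for the limma estimate and bars for the 95% confidence interval. The intervals are narrowest for the mean of 6, where all include 0, and widest for Elovl6 at ZT8, where the interval reaches -1.03.

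At single time points the 6 genes likewise gave no call, by limma adjusted over all genes. The shares of all genes called were 0.854% at ZT0, 0.386% at ZT4, 8.34% at ZT8, 18.0% at ZT12, 1.24% at ZT16 and 0.702% at ZT20. At an unadjusted p under 0.05 stood Scd1 and Acacb at ZT8, Acly at ZT16 and Acacb at ZT20. The test of whether the diet difference changed with time called none of the 6 genes, beside 19.0% of all genes, with the lowest adjusted p for Acacb (0.0721). Distances from 0 of the farthest 95% interval bounds were 0.61 at ZT0, 0.46 at ZT4, 1.03 at ZT8, 0.55 at ZT12, 0.51 at ZT16 and 0.57 at ZT20, all but that of ZT16 (Acly) from Elovl6. With 2 arrays per diet, ZT8 therefore leaves room for a difference of up to 2.04-fold by the probe sets used. The interval of the second Acaca probe set reached -1.44 there.

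The arrays of the 2 diets did not overlap for few of these genes. No gene of the 6 was without overlap at ZT0 (13.4% of all genes were) or at ZT16 (8.64%). At ZT4 only Acacb had separate diets (11.2% of all genes), with 6.55, 6.53 and 6.60 under control feeding below all 4 high fat arrays. At ZT8 Scd1 and Acacb were separate (46.5% of all genes), at ZT12 Acly and Scd1 (28.2%), and at ZT20 Acacb (7.56%). At ZT12 Acly read 9.99, 10.02 and 10.07 in control mice and 10.09, 10.12, 10.48 and 10.17 in high fat mice, a difference of 0.19 ± 0.12 (SE; limma, adjusted p = 0.309). Scd1 differed there by 0.14 ± 0.10 (adjusted p = 0.312), the opposite direction to its ZT8 value. The diet by time test of Scd1 did not pass. The Acacb diet difference was 0.23 ± 0.10 (SE) at ZT8 and -0.18 ± 0.07 at ZT20, of opposite sign, but neither passed (limma, adjusted p = 0.172 and 0.240). Its diet by time test did not pass either (adjusted p = 0.0721).

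At ZT8 Scd1 read 11.24 and 11.32 under control feeding against 10.78 and 11.16 under high fat feeding, a difference of -0.31 ± 0.13 (SE; limma, adjusted p = 0.130). Elovl6 differed there by -0.45 ± 0.29 (adjusted p = 0.365). Both values turned on high fat ZT8 replicate 2: without it Scd1 differed by -0.49 (adjusted p = 0.0318) and Elovl6 by -1.07 (adjusted p = 0.0223), and without replicate 1 Elovl6 differed by 0.18. The array that brought the high fat group close to the control group was also the one whose suprabasal list (10.22) and basal list (11.13) lay at the control ZT8 levels. The mean of the hair matrix list was 6.37 and 6.74 on the control and 6.01 and 6.05 on the high fat ZT8 arrays. In this list high fat replicate 2 lay below the control arrays, as replicate 1 did. Of its 5 measured genes, 3 were called lower at ZT8, beside 8.34% of all genes called there. Of the 7 bulge stem cell genes, 2 were called lower and 1 higher. The mean of the sebocyte list was 6.64 and 6.65 on the control and 6.27 and 6.46 on the high fat ZT8 arrays. Only 1 of its 7 measured genes was called, as lower, and the median difference over the 7 was 0.06. The part of these lists in these values was not tested. At ZT16 Acly read 10.33, 10.37, 10.26 and 10.01 under control feeding and 9.64, 9.93, 10.13 and 10.14 under high fat feeding, a difference of -0.28 ± 0.11 with overlapping arrays (adjusted p = 0.204).

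Of the 6 genes, 5 have more than 1 probe set, and in some of them the choice matters. In a fit over all 28898 probe sets with 1 gene, the second Acaca probe set read 8.76 and 9.25 on the control ZT8 arrays and 8.12 and 7.97 on the high fat ZT8 arrays. It differed between the diets at ZT8 by -0.96 ± 0.23 (SE; limma, adjusted p = 0.0101; 7.69% of probe sets were called) and in the diet by time test (adjusted p = 0.0245; 17.7% called). The Acaca probe set used read 9.79 and 9.29 against 9.36 and 9.61 on the same arrays, a difference of -0.06 ± 0.17. The ZT8 call of the second probe set was lost without control ZT8 replicate 2 (-0.72, adjusted p = 0.199), without high fat ZT8 replicate 2 (-0.88, adjusted p = 0.0626) and with array weights (adjusted p = 0.0658), and its diet by time call under the same settings and without ZT8 (0.233). Both Acaca probe sets correlated at 0.465 over the 12 group means.

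Over the day the second Acaca probe set was called in both diets (limma, adjusted p = 0.000108 under control feeding, 0.0175 under high fat feeding), as 43.0% and 40.4% of probe sets were. Its lowest mean fell at ZT12 in both diets, 7.67 ± 0.06 (n = 3) and 7.44 ± 0.31 (n = 4), the time at which the probe set used was lowest too. Without ZT8 the control call was lost (0.0754), and the high fat call without ZT12 replicate 1 (0.0631) or ZT12 replicate 4 (0.113). The second Acly probe set was called over time in both diets (0.00849 and 0.0350) and correlated with the first at 0.817, but lost both calls without ZT8 (0.510 and 0.0718). Its control call was also lost without control ZT8 replicate 1 (0.191), and its high fat call without high fat ZT0 replicate 3, ZT8 replicate 2 or ZT16 replicate 1, 2 or 4 (adjusted p up to 0.122). The second Scd1 probe set, at r = 0.954, was called in both diets (0.000470 and 0.0133) whichever array was left out.

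Elovl6 has 3 probe sets. The second (r = 0.723 with the first) was called over time under control feeding (limma, adjusted p = 0.0244) and the high fat diet (0.00339), and its high fat cosine passed with an amplitude of 0.32 and a peak at ZT3.7 (0.0175; 10.2% of probe sets were called). The high fat calls of this probe set held whichever array was left out. Its control call was lost without ZT8 (adjusted p = 0.283), with array weights (0.0537) and without either single control ZT8 array. Its diet average was -0.22 ± 0.07, just short of the threshold (adjusted p = 0.0575). The third Elovl6 probe set (r = 0.800) passed in none of the comparisons. A probe set samples 1 stretch of a transcript, and which stretch each one reads was not analysed here.

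**Figure D3:**
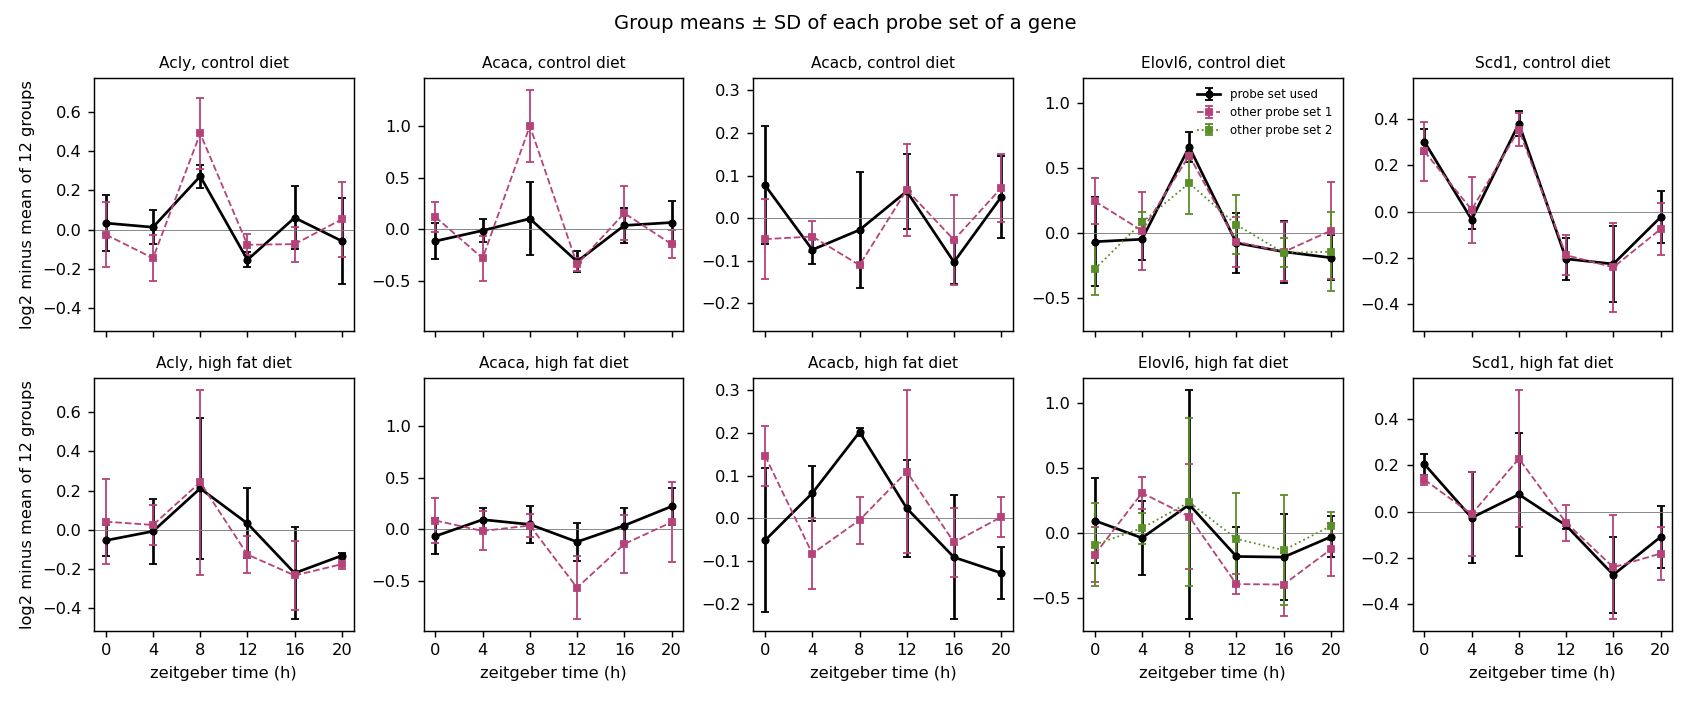
Group means ± SD (bars) of each probe set of the 5 genes with several, as log2 values minus the probe set's mean over the 12 groups (vertical axes) against zeitgeber time in hours, with the control diet above and the high fat diet below. The Scd1 probe sets run together, whereas the second Acaca probe set rises much further at control ZT8 than the first, in black.

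The 6 genes did not share 1 course. Over the 12 group means, 12 of 15 pairs of genes correlated above 0, with a median r of 0.196 and a range of -0.355 to 0.726. The highest were Acly with Elovl6 (0.726), Scd1 with Elovl6 (0.711), Acaca with Fasn (0.703) and Acly with Scd1 (0.652). Fasn and Scd1, the genes called over time in both diets, gave the lowest value (-0.355), Scd1 being high at ZT0 where Fasn was low. These are descriptions over points that share arrays, and the control ZT8 arrays are the highest point of Acly, Scd1 and Elovl6.

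Outside the 8 listed genes, those with the most similar course over the 12 group means were Agpat3, Znrf2 and Psrc1 for Scd1 (r = 0.944, 0.938 and 0.929) and Ccl8, Vil1 and Parvg for Fasn (0.948, 0.922 and 0.910). For Elovl6 they were Perm1, Grhl1 and Dclk1 (0.973, 0.966 and 0.960), and for Acaca Eln, Fzd5 and Dhrs7 (0.939, 0.887 and 0.884). The closest to Acly were Rhbg, Btc and Lig3 (0.916, 0.916 and 0.915), and to Acacb Slc41a2, Inpp5b and Hypk (0.857, 0.853 and 0.850). Each is the top of 17097 genes over 12 points, so high values are bound to occur.

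The pathway around the 6 genes was described through 6 lists with 61 genes, of which 52 were measured. Of these 52, 26 differed over time under control feeding and 25 under high fat feeding (50% and 48.1%, beside 43.9% and 41.5% of all genes), and 8 passed the cosine test in each diet (15.4%, beside 6.66% and 11.2%). Diet called 5 of the 52 at ZT8 (9.62%, beside 8.34% of all genes), 4 at ZT12 (7.69%, beside 18.0%) and 3 in the average (5.77%, beside 7.59%). It called 1 at ZT0 and 1 at ZT16 (1.92% each, beside 0.854% and 1.24%), and 0 at ZT4 and ZT20 (limma). These shares describe the lists and were not tested against all genes.

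Of the enzymes that activate fatty acids or join them to glycerol, 8 of 10 differed over time under control feeding and 5 of 10 under high fat feeding. The shares over all genes were 43.9% and 41.5%. Gpam, which starts glycerolipid synthesis, peaked at ZT10.6 under control feeding and ZT10.0 under high fat feeding, with amplitudes of 0.48 ± 0.08 and 0.39 ± 0.08 (SE; limma cosine, adjusted p = 0.000719 and 0.00484). Agpat3, an acyltransferase of the next step, peaked at ZT4.4 and ZT3.8 with amplitudes of 0.48 and 0.41 (adjusted p = 0.00752 and 0.0136), near the peak of Scd1. Dgat2, which completes triglycerides, peaked at ZT6.2 and ZT7.1 (0.00602 and 0.0279). Gpam, Agpat3 and Dgat2 had their highest control means at ZT8 (9.81, 10.78 and 10.82, n = 2). At high fat ZT8 the SDs of Agpat3 and Dgat2 were 0.84 and 0.76 (n = 2). Their cosine calls were not checked in the alternative settings. Over all genes the cosine called 1138 under control and 1908 under high fat feeding, but 137 and 66 with time point as a random block. At ZT0 Dgat1, the other enzyme of that last step, was lower under high fat feeding (7.25 ± 0.18, n = 3) than under control feeding (7.66 ± 0.13, n = 4), a difference of -0.41 ± 0.09 (SE; adjusted p = 0.0256). That call was lost without control ZT0 replicate 3 or 4 or high fat ZT0 replicate 2 or 3, in the arrays of ZT0 alone and with the mean of the gene's probe sets (adjusted p up to 0.228).

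Suppliers of carbon and NADPH include Me1, the malic enzyme. Me1 read 11.29 and 11.41 on the control ZT8 arrays and 10.17 and 10.96 on the high fat ZT8 arrays, a difference of -0.79 ± 0.19 (SE; limma, adjusted p = 0.00999). High fat replicate 2 again lay nearer the control arrays. Me1 also fell in the diet average, by 0.22 ± 0.06 on the log2 scale (adjusted p = 0.0261), a call that was lost without ZT8, without ZT12, without control ZT8 replicate 2 or high fat ZT8 replicate 1, and with the mean of its probe sets (adjusted p up to 0.446). Slc25a1, the citrate carrier that feeds Acly, passed the cosine test in both diets with peaks at ZT1.8 and ZT5.3 (adjusted p = 0.0152 and 0.00314). Its cosine calls were not checked in the alternative settings either. Pgd, also of this list, was called higher under high fat feeding at ZT12 (9.62 ± 0.15, SD, n = 4, against 9.24 ± 0.13, n = 3). That call was lost in 27 of 49 settings (limma, adjusted p up to 0.186). In this list 3 of 6 genes under control feeding and 4 of 6 under high fat feeding differed over time, beside 43.9% and 41.5% of all genes.

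Of the elongation cycle 6 of 10 measured genes differed over time under control feeding and 4 of 10 under high fat feeding, beside 43.9% and 41.5% of all genes. Tecr, the reductase of the last step, passed in both (limma F test, adjusted p = 0.000179 and 0.0331), as did the dehydratase Hacd2 (0.00400 and 0.000438) and the elongase Elovl7 (0.00113 and 0.00150). Elovl4, which makes very long chains for barrier lipids, was lower under high fat feeding at ZT8 (10.52 ± 0.86 against 11.37 ± 0.06, n = 2 each), by 0.85 ± 0.25 on the log2 scale (SE; adjusted p = 0.0298). All 5 pathway calls at ZT8 were falls (Me1, Elovl4, Lpin2, Insig2 and Acsl5), and all 5 were lost with array weights, with the ZT8 arrays alone and without single ZT8 arrays (adjusted p up to 0.659). The suprabasal list moved beside them, with 3 of its 9 genes called lower at ZT8 (8.34% of all genes were called), and its part in them was not tested.

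Desaturation genes other than Scd1 gave diet calls for Degs1 and Cyb5a. Degs1, the dihydroceramide desaturase of ceramide synthesis, was higher under high fat feeding by 0.23 ± 0.05 in the average (SE; limma, adjusted p = 0.00486), and the call held in 50 of 51 alternative settings, the exception being the one without ZT12 (adjusted p = 0.0691). At ZT16 Degs1 read 8.84, 9.02, 9.20 and 9.17 under control feeding and 9.49, 9.50, 9.85 and 9.56 under high fat feeding, without overlap (0.54 ± 0.11; adjusted p = 0.00816). At ZT12 it read 9.21, 9.10 and 9.09 against 9.39, 9.53, 9.50 and 9.50 (0.34 ± 0.12; adjusted p = 0.0357). The ZT12 call of Degs1 was lost in 7 of 49 settings, namely without any 1 of the 3 control arrays, without high fat replicate 2, 3 or 4, and with array medians of the genes tested subtracted (adjusted p up to 0.113). Cyb5a, the cytochrome b5 that passes electrons to desaturases, was higher at ZT12, at 10.87 ± 0.14 (SD, n = 4) against 10.32 ± 0.08 (n = 3), by 0.55 ± 0.15 (SE; adjusted p = 0.00923), a call kept in 49 of 49 settings. At ZT12 3 of 9 suprabasal genes were called higher (18.0% of all genes were called), and their part in these values was not tested. Of the 6 measured genes in this list, 2 differed over time under control feeding and 3 under high fat feeding, beside 43.9% and 41.5% of all genes.

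Among 15 measured regulators of lipogenesis, 6 differed over time in each diet (40%, beside 43.9% and 41.5% of all genes). Insig1, which holds back SREBP processing when sterols are plentiful, had the smallest adjusted p in both (4.79e-06 and 0.000144, limma F test). Diet calls were Insig2 at ZT8 (-0.74 ± 0.22; adjusted p = 0.0322), the oxysterol receptor gene Nr1h3 at ZT12 (0.29 ± 0.07; 0.00555) and Prkaa2, a catalytic subunit of the AMP-activated kinase that inhibits acetyl-CoA carboxylases, in the average (0.23 ± 0.06; 0.0207). The Prkaa2 call was lost without ZT12, without ZT8 and ZT12 together and without high fat ZT8 replicate 1 (adjusted p up to 0.0820). The Nr1h3 call was kept in 48 of 49 settings and lost in the ZT12 arrays alone (limma, adjusted p = 0.0718). Of the mitochondrial fatty acid synthesis genes, 1 of 5 under control feeding and 3 of 5 under high fat feeding differed over time, beside the same shares of all genes. Diet called 0 of them at each time point and in the average (limma).

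**Figure D4:**
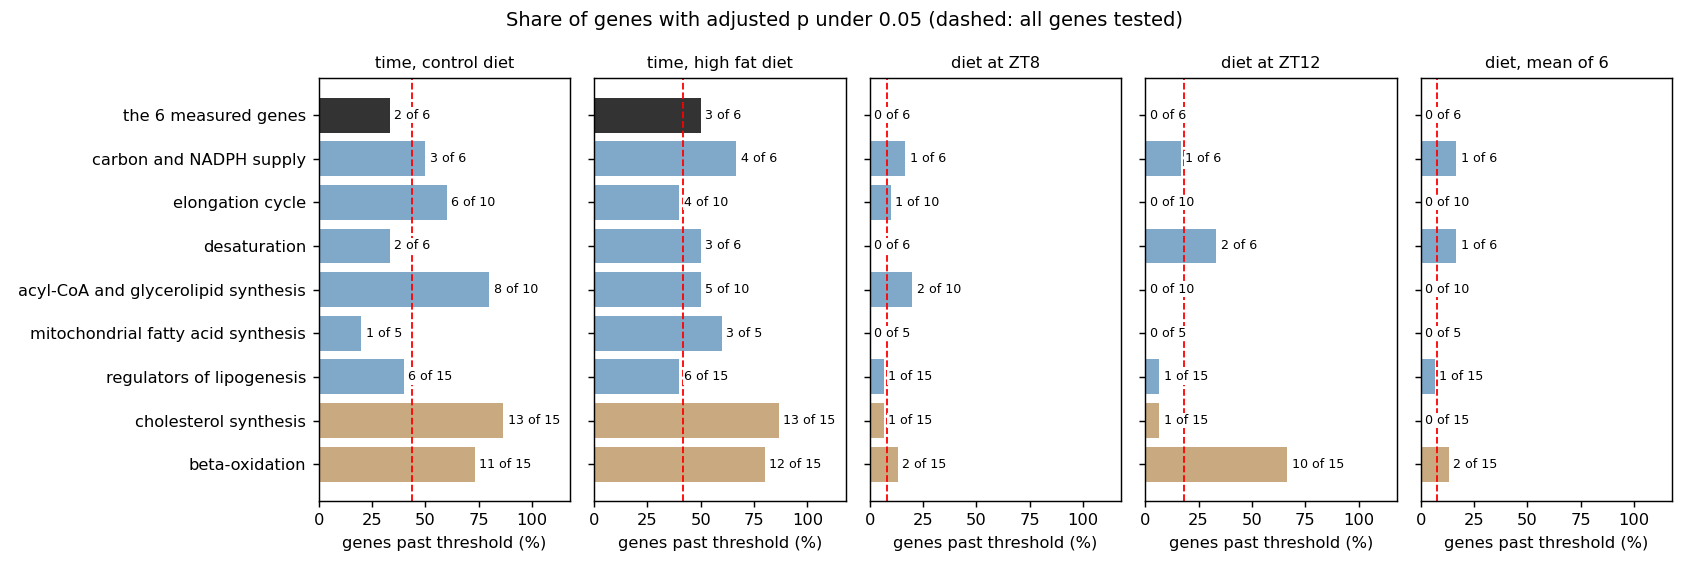
Share of genes (horizontal axes, percent) with an adjusted p under 0.05 in 5 limma comparisons, for the 6 measured genes (black), 6 lists of the same pathway (blue) and 2 neighbouring pathways (brown), with called and measured genes as numbers and the share over all 17097 genes as a dashed line. The 6 genes lie near the dashed line for time, with 2 of 6 and 3 of 6, and at 0 for diet.

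Neighbouring pathways of lipid metabolism gave other counts. Of 15 measured genes of cholesterol synthesis, a pathway run by SREBP-2, 13 differed over time in each diet (86.7%, beside 43.9% and 41.5% of all genes). Diet called 1 at ZT8 (Stard4, lower) and 1 at ZT12 (Mvk, higher), 6.67% each, beside 8.34% and 18.0% of all genes. The Stard4 call was lost with array weights and in the ZT8 arrays alone, and its difference ran from -1.85 to -0.74 over the settings. The Mvk call was lost in 7 of 49 settings (limma, adjusted p up to 0.148). Of 15 measured genes of mitochondrial beta-oxidation, which breaks fatty acids down, 10 were called at ZT12, all higher under high fat feeding (66.7%, beside 18.0% of all genes), and 0 of the 6 synthesis genes were called there. Hadhb, a subunit of the trifunctional protein, differed there by 0.45 ± 0.09 (SE; limma, adjusted p = 0.00124), although the mean of its probe sets differed by 0.09. Cpt1a, the enzyme that malonyl-CoA restrains, differed by 0.49 ± 0.13 (adjusted p = 0.00857; 0.0617 without control ZT12 replicate 2). The Decr1 call was lost in 21 of 49 settings (limma, adjusted p up to 0.170) and the Slc25a20 call in 3 of 49. At ZT8 diet called Cpt2 and Echs1 higher (13.3%, beside 8.34% of all genes). Acadm was called higher at ZT16 and Hadhb lower at ZT20 (6.67% each, beside 1.24% and 0.702%). These ZT8, ZT16 and ZT20 calls were lost in the arrays of their time point alone. In the average Acadm and Acadvl were called higher (13.3%, beside 7.59%). The bulge stem cell list moved at ZT12 as well (4 of 7 genes called higher and 1 lower), as did the leukocyte and Langerhans cell list (4 of 7 higher and 1 lower), the suprabasal list (3 of 9 higher) and the melanocyte list (2 of 5 lower), and their part was not tested. A difference between the synthesis genes and the oxidation genes was not tested.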

How the data were processed

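RNA of epidermal stem cells was hybridised to 41 Affymetrix arrays, after amplification of 25 ng of total RNA over 17 cycles, per the labels. The deposited values are log2 intensities that the authors made with RMA, per the submitters' processing notes; its version is not given in the sources used here. Values on that scale run from 2.17 to 13.5 with array medians of 6.41 to 6.44. Precision is limited by how many arrays a group has.

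Of 45141 probe sets, 28898 had 1 gene by the platform annotation, which can be old, and 551 with several genes were left out. The probe set with the highest mean stood for each of 17097 genes, without a filter on low values. No label ties every array to its own mouse, so p-values measure the spread between arrays, which may be technical.

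Tests used limma 3.58.1 in R 4.3.3 (reading by data.table version 1.17.8, matplotlib 3.10.9 in Python 3.11.15 for figures), with 1 mean for each of 12 groups (29 residual and 2.63 prior degrees of freedom) or a 24 h cosine in each diet (35 residual), and Benjamini-Hochberg adjustment over all genes at 0.05. The code was tested on simulated data. Named genes are the listed genes, list members past the threshold (at most 6 per list and comparison, by smallest adjusted p) and the 3 most similar genes. The members and lists were chosen with earlier results of these data known. Replicate numbers were not used to pair the arrays in the main fits. Deviations from group means correlated above 0.1 in 2 of 19 same-numbered pairs and in 13 of 53 different-numbered pairs. Within groups of so few arrays such deviations are tied together, so these counts cannot decide whether the numbers pair the arrays. The alternatives were another choice of probe set, a filter on dim genes, centring, eBayes and array weights, a replicate block, a random block, and leaving out arrays or time points.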

Additional observations from a re-analysis of the deposited data

Results flagged for a closer look

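Over the 7 groups with 4 arrays and the 6 genes by the probe sets used, which make 42 sets of values, 1 held an array far from the others: Acly on control ZT0 replicate 1 read 10.43, while the other 3 arrays of that group read between 10.12 and 10.17. Chance sets about 1 in 20 such sets apart. The second Acaca probe set had a diet difference that changed with time by limma's test of that change (adjusted p = 0.0245), which the Acaca probe set used did not share (0.844). At ZT8 it was lower under high fat feeding by 0.96 on the log2 scale.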

How the results depend on the processing

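Counts of the 6 genes called kept within 1.5 times under most alternatives. When probe sets of a gene were averaged, Acaca was called at ZT8 (-0.51, adjusted p = 0.0335) and in the diet by time test (0.0484), which made 1 call in each, the time tests called 5 genes in each diet, and the high fat cosine called 0. The high fat cosine also called 0 without ZT8, the control cosine called 0 without ZT12, and with time point as a random block (correlation 0.366) both cosines called 0. Leaving out 1 array gave 0 to 2 calls at ZT8, 0 to 1 in the diet by time test (Acacb, without control ZT8 replicate 1 or high fat ZT0 replicate 1), 1 to 3 and 2 to 4 in the control and high fat time tests, and 0 to 1 in each cosine test. Diet called none of the 6 genes in the main fit. Only the few diet calls of alternative fits could thus show a reversed sign, and none did. Uncalled diet differences changed sign in 39 of 492 alternatives and 55 of 1722 leave-one-out fits. With array medians of the genes tested subtracted, Elovl6 passed over time under control feeding (0.0469). The replicate block changed no call of the 6 genes (2 and 3 time calls, 1 cosine call in each diet). The cause was not tested in any of these. Over all genes, the ZT8 count was 1426, 379 with array weights and 0 from the ZT8 arrays alone (where the ZT12 arrays alone called 1829 of 3086), and the diet average count was 1297, 198 without ZT12 and 246 without both ZT8 and ZT12, the last a setting chosen after seeing the data.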
